A study of Mus musculus with 209 samples.

Results

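The genes described here are 9 genes for sensing foreign or double-stranded RNA and for responding to it: Ddx58, Ifih1, Dhx58, Ddx60, Mavs, Tlr7, Tlr8, Eif2ak2 and Adar. They were taken by symbol from count tables of mouse oocytes, 2-cell samples and epiblasts, and all 9 were found among 24450 gene rows. They were chosen because Ddx58 and Ddx60 had been seen lower, and Tlr8 higher, in knockout oocytes. Their levels in the oocyte comparison are therefore given as a description, with no test.

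RNA was measured as polyadenylated transcripts in 33 MII oocytes, the mature eggs released at ovulation, in 17 2-cell samples and in 4 epiblast samples. Of the oocytes 14 were wild-type (WT) and 19 carried the knockout (KO). There were 8 WT and 9 KO samples at the 2-cell stage. The labels give the KO genotype as N14 maternal KO, read here as Nlrp14, and do not say how the allele was made. Females were C57BL/6, aged 6 to 8 weeks and superovulated with PMSG and hCG. Oocytes were collected 14 to 15 hours and 2-cell samples 42 to 43 hours after hCG. Males for mating were C57BL/6 or PWK, but which sired these 2-cell samples, and whether a sample is a whole embryo or 1 blastomere, is not stated. The split of their reads by allele requires a father that differs in sequence from the C57BL/6 mother. The epiblast samples, all wild-type with a C57BL/6 mother and father, were 2 from embryos at E6.5 (labelled ND, a term the labels do not explain) and 2 from cultured embryos (IVC). No animal is named for the oocyte and 2-cell libraries, so each group counts as 1 sample. Their libraries were pooled by group, and the groups were compared without a test.

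RIG-I-like receptors are cytosolic helicases that bind viral RNA and pass the signal to the adaptor Mavs on mitochondria, which leads to interferon production. Ddx58 encodes RIG-I, which recognises RNA with a triphosphate at its 5′ end, Ifih1 encodes MDA5, which recognises long double-stranded RNA, and Dhx58 encodes LGP2, a relative that lacks the signalling domain and regulates both. Tlr7 and Tlr8 are endosomal receptors for single-stranded RNA, best known from immune cells. Eif2ak2 encodes PKR, a kinase that halts translation when it binds double-stranded RNA, and Adar converts adenosine to inosine in such RNA, which keeps a cell's own transcripts from being sensed.

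The 3 genes that define the set are shown here by the 250 bases before their start sites. Many antiviral genes are induced by interferon through an element whose core repeats GAAA. Capitals mark matches to GAAANNGAAA or GAAANGAAA, searched on both strands. The sequences are from RefSeq, build GRCm38.p6, 5′ to 3′ on the gene's strand: Ddx60 at chr8:61927837-61928086 (plus strand), Ddx58 at chr4:40239826-40240075 (minus strand) and Tlr8 at chrX:167264330-167264579 (minus strand).
Ddx60: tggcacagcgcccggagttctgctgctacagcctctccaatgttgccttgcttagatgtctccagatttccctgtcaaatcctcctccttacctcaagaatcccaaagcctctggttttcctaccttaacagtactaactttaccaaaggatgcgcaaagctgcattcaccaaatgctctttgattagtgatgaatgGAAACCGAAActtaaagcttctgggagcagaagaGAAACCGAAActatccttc
Ddx58: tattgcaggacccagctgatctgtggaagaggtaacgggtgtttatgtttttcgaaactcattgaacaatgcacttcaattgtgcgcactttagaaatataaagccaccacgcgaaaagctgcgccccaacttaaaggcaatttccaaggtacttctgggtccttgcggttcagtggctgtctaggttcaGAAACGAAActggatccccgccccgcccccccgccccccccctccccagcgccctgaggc
Tlr8: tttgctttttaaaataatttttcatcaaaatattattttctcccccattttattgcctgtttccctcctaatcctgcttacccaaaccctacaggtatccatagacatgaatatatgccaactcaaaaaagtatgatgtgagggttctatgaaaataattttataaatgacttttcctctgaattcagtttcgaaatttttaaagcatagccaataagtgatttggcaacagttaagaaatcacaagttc
Ddx60 held GAAACCGAAA at 2 places, from -53 to -44 and from -19 to -10 relative to the start site. Ddx58 held GAAACGAAA from -60 to -52, and a match on the opposite strand from 3 to 12 past the start. Tlr8 held neither spacing. Of the 9 members, 7 had a RefSeq window (250 bases before to 50 after a start), 9 windows in all, and Dhx58 and Tlr7 had none. The windows of 5 members held either spacing, the others being Ifih1, Eif2ak2 and 1 of 3 windows of Adar, while the window of Mavs held none. Over all 32851 windows of this length, 6.27% held either spacing, 3.44% GAAANNGAAA and 3.17% GAAANGAAA. A match is a description of the letters and not a bound site.

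Nlrp14 itself separated the genotypes. In CPM, the gene's counts per 1000000 gene counts of the library, it had 225 to 3307 in WT oocytes (median 407) and 0.643 to 73.2 in KO oocytes (median 37.1). In 2-cell samples it had 106 to 477 in WT (median 287) and 29.4 to 86.4 in KO (median 67.3). Libraries held 3933604 to 13052327 gene counts in WT oocytes and 4585916 to 10637866 in KO oocytes. The 2-cell libraries held 3788348 to 10303580 in WT and 2704050 to 15007301 in KO. Oocyte libraries were split into 2 sets by their share of ERCC spike-in RNA. At 0.01% or more were 10 WT and 7 KO libraries, and under 0.01% were 4 WT and 12 KO libraries. The highest share below that limit was 0.00326% and the lowest above it 0.0285%. Neither set was uniform, so ratios within a set do not compare technically matched libraries. At 0.01% or more, the ERCC share was 0.0382 to 0.0586% in WT and 0.0285 to 0.0389% in KO. The ribosomal RNA gene Rn45s there took up to 3.55% of counts in WT and up to 1.54% in KO. Under 0.01%, Rn45s took 1.78% or more in WT replicate 14 and KO replicates 18 and 19, and 0.508% or less in the others. The labels do not describe these sets, so the oocyte ratios of Eif2ak2 and of the 5 members that reached 10 CPM, and the counts of called genes, are also given within each. Oocyte markers, such as the zona pellucida genes, summed to 13271 to 33083 CPM in WT and 15127 to 37085 in KO oocytes. The 12 immune cell markers summed to 7.92 to 29.3 CPM in WT and 0 to 22.2 in KO oocytes. Laptm5 had pooled levels of 11.1 CPM in WT and 10.8 in KO, and Cd68 3.97 and 2.76. The other 10 were under 1 CPM in each pool, and of these Lyz2, Aif1, Tyrobp and Fcer1g had no count in either group.

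One 2-cell library stood apart from its group. WT replicate 8 had the lowest Nlrp14 level of the WT samples (106 CPM), although above all 9 KO samples. Its paternal share of allele-assigned counts was 4.00%, against 9.03 to 24.7% in the other WT samples and 1.21 to 8.68% in KO. It was also the deepest WT library, with 10303580 counts. Its 0.621% of counts from the ribosomal RNA gene Rn45s and its 0.0583% of ERCC lay below the other WT samples and within the KO ranges. The 2-cell ratios of the members and the counts over the gene lists are given with and without it.

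Ddx58, the RIG-I gene, was lower in KO oocytes. It had 2.39 to 76.6 CPM in WT oocytes (median 48.7) and 0.412 to 21.2 in KO oocytes (median 7.93). All 19 KO oocytes lay below the WT median, yet the groups overlapped, and the 4 WT libraries with little spike-in lay within the KO range. The pooled levels were 8.53 CPM in KO and 35.2 in WT, a log2 ratio of -2.04 (95% counting interval -2.14 to -1.95). Intervals here and below are for pooled counts, so they cover counting error only and not the spread between libraries. The reads also carry no molecular identifiers, so the counts are of reads and not of molecules.

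Within the libraries with 0.01% spike-in or more, the difference in Ddx58 was of similar size. The 10 WT oocytes had 20.2 to 76.6 CPM (median 59.4) and the 7 KO oocytes 6.71 to 21.2 (median 15.8), with pooled levels of 55.1 and 15.0 and a log2 ratio of -1.88 (-1.99 to -1.77). Within the libraries under 0.01% it was small. The 4 WT libraries had 2.39, 3.22, 9.62 and 9.12 CPM (replicates 1, 2, 3 and 14) and the 12 KO libraries 0.412 to 14.2 (median 3.22). The log2 ratio there was -0.42 (-0.65 to -0.19), with both pools under the 10 CPM needed for a call. Among WT oocytes alone, all 10 libraries of the spike-in set were above all 4 others for Ddx58, a log2 ratio of 3.24. In that same comparison, 19.9% of 6528 genes were at least 2-fold higher.

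Ddx60, which encodes a helicase reported to assist RIG-I-like receptors, was lower in KO oocytes in both sets. Over all oocytes it had 5.38 to 81.8 CPM in WT (median 22.3) and 0 to 20.6 in KO (median 4.36). All 19 KO libraries lay below the WT median, and all 14 WT libraries lay above the KO median, although the ranges overlapped. The pooled levels were 6.39 in KO and 27.7 in WT, a log2 ratio of -2.11 (-2.22 to -2.01).

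In the spike-in set Ddx60 had 8.83 to 81.8 CPM in WT (median 28.2) and 1.71 to 20.6 in KO (median 6.93), a log2 ratio of -1.69 (-1.83 to -1.56). In the other set the 4 WT libraries had 36.7, 23.0, 5.38 and 9.22 CPM (replicates 1, 2, 3 and 14) and the KO libraries 0 to 11.9 (median 3.48). All 12 KO libraries were below the WT median there, and the log2 ratio was -2.32 (-2.51 to -2.14). Among the 3 WT and 10 KO libraries of this set with Rn45s under 1% the ratio was -2.79, and between the remaining 1 WT and 2 KO libraries it was -0.07.

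Tlr8, the endosomal receptor, went the other way. It had 0 to 42.0 CPM in WT oocytes (median 2.62) and 9.39 to 56.9 in KO oocytes (median 31.7). All 19 KO oocytes were above the WT median, while 3 of the 4 WT libraries with little spike-in had 22.6 or more, so the groups overlapped. The pooled levels were 31.1 in KO and 11.52 in WT, a log2 ratio of 1.43 (1.34 to 1.53).

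The size of the Tlr8 difference depended on the library set. In the spike-in set WT oocytes had 0 to 19.1 CPM (median 1.49) and KO oocytes 9.39 to 43.1 (median 25.6). The pooled log2 ratio was 3.22 (2.99 to 3.45), and 3.94 without WT replicate 11. Immune cell markers summed to 10.1 to 24.1 CPM in WT and 8.41 to 15.97 in KO libraries of this set. Their sums in the other set were 7.92 to 29.3 in WT and 0 to 22.2 in KO. The part of immune cell RNA in the Tlr8 levels was not tested. In the other set the 4 WT libraries had 42.0, 22.6, 0.472 and 34.2 CPM (replicates 1, 2, 3 and 14) and the KO libraries 16.6 to 56.9 (median 33.1), a log2 ratio of 0.52 (0.42 to 0.62). Among the 3 WT and 10 KO libraries of this set with Rn45s under 1%, pooled levels were 35.7 CPM in KO and 21.9 in WT. Between the remaining 1 WT and 2 KO libraries they were 31.3 in KO and 34.2 in WT, so the direction differed. Among WT oocytes, Tlr8 was thus lower in the spike-in set, by a log2 ratio of -3.20, where 18.7% of genes were at least 2-fold lower. Among KO oocytes the same ratio was -0.50.

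**Figure D1:**
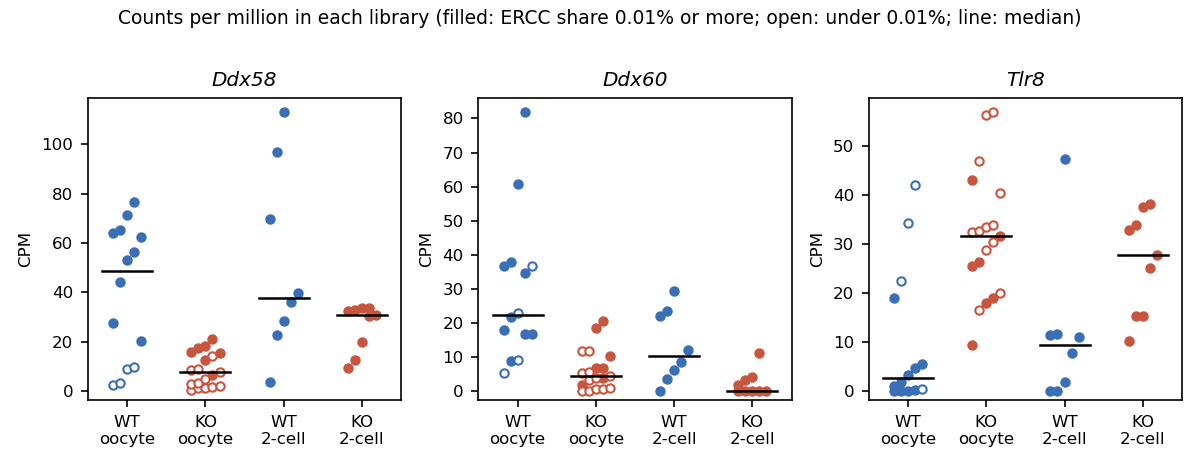
CPM of members, Ddx58, Ddx60 and Tlr8 among them, by group, on linear axes: each point is 1 library, filled for an ERCC share of 0.01% or more and open for less, and the line is the median. Ddx58 and Ddx60 sit lower and Tlr8 higher in KO oocytes, and the open WT points of Ddx58 lie at KO levels, between 2.39 and 9.62 CPM.

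The adaptor gene Mavs differed less. It had 0 to 14.3 CPM in WT oocytes (median 7.91) and 0.130 to 25.1 in KO oocytes (median 15.0). All 14 WT libraries were below the KO median, and the groups overlapped. The log2 ratio was 0.82 (0.70 to 0.94) over all oocytes, 0.98 (0.818 to 1.147) in the spike-in set and 0.66 (0.49 to 0.83) in the other.

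Adar, the RNA editing enzyme, was at the same pooled level in both genotypes. It had 3.02 to 43.6 CPM in WT oocytes (median 26.3) and 5.31 to 46.7 in KO oocytes (median 21.6), and the log2 ratio was 0.01 (-0.06 to 0.09). Within the spike-in set it was 0.36 (0.27 to 0.45) and within the other 0.04 (-0.10 to 0.18). It moved with the library set in both genotypes, with a log2 ratio of 1.16 in WT and 1.47 in KO for the spike-in set over the other. Whether the counts use strand is not stated, and Adar overlaps Chrnb2, as Eif2ak2 overlaps Gm6548, so their reads could be shared.

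The other 4 members were under 10 CPM in every oocyte, and Dhx58, Ifih1 and Tlr7 had counts in few libraries. Eif2ak2, the PKR gene, had 0.146 to 4.24 CPM in WT (median 1.94) and 0 to 6.65 in KO (median 0.581), a log2 ratio of -0.63 (-0.93 to -0.34). The ratio was -1.50 (-1.98 to -1.04) in the spike-in set and 0.46 (-0.03 to 0.97) in the other, where the interval included 0. The medians in that other set were 0.849 CPM in WT and 0.634 in KO, so a change of direction between the sets is not shown. Dhx58 had 47 counts in all in 6 of 14 WT libraries and 35 in 6 of 19 KO libraries. Ifih1 had 21 counts in 3 WT libraries and 1 count in 1 KO library, a log2 ratio of -4.82 with a counting interval of -10.19 to -2.19. Tlr7 had 7 counts in 2 WT libraries and none in KO.

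**Figure D2:**
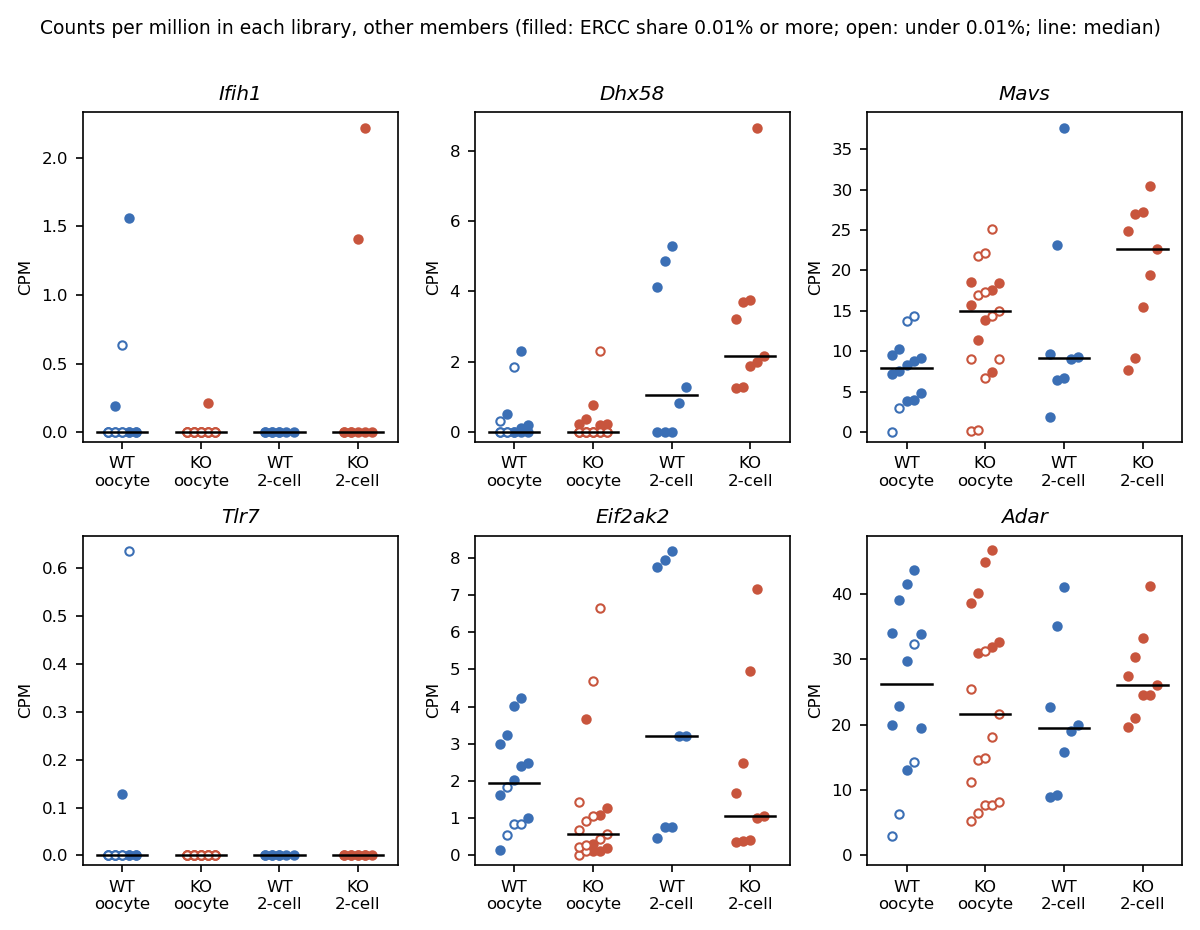
CPM of other members, Ifih1, Dhx58, Tlr7 and Eif2ak2 among them, by group, on linear axes: each point is 1 library, filled for an ERCC share of 0.01% or more and open for less, and the line is the median. Most libraries lie at 0 for Ifih1 and Tlr7, and Dhx58 is above 0 in all 9 KO 2-cell samples.

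Counted by the rule used here (at least 2-fold between pools, in genes that reached 10 CPM in one of them), 5 members could be compared in oocytes, 1 being higher and 2 lower in KO. Of all 6325 genes compared, 2.04% were higher and 2.39% lower. The members were chosen on this contrast, so nothing is read from that count. In the spike-in set the count was again 1 higher and 2 lower of 5, where 9.41% of 6375 genes were higher and 3.69% lower. In the other set it was 1 lower of 4, where 1.11% of 6053 genes were higher and 1.62% lower. Leaving out any 1 library moved the log2 ratio over all oocytes between -2.21 and -1.91 for Ddx58, between -2.33 and -1.88 for Ddx60 and between 1.29 and 1.94 for Tlr8.

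Over all oocytes, 3 of 76 compared genes of 8 lists of the wider pathway were lower in KO and 0 higher, against the 2.39% and 2.04% of all genes. The lists were drawn up with earlier results of these data known. None of 19 regulators of RIG-I-like receptors, none of 10 other RNA sensors, none of 4 genes of the Toll-like receptor machinery and none of 3 interferon receptor and JAK-STAT genes was 2-fold apart. The same held for 14 genes of double-stranded RNA handling and 9 of eIF2alpha phosphorylation. Of 10 genes that signal from sensors to interferon, 2 were lower: Casp8, a protease with a log2 ratio of -1.33, and Fadd, its adaptor, at -1.07. Of 7 interferon-stimulated genes, Dtx3l, a ubiquitin ligase, was lower (-1.99). Within the spike-in set Casp8 was at -1.24 and within the other at -0.43. The list medians ran from -0.57 to 0.53, against 0.02 for all genes compared.

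Within the library sets the list genes differed from these counts. In the spike-in set 8 of 74 were higher in KO and 3 lower, where 9.41% and 3.69% of all genes were. The higher genes were Mex3c (1.13), Usp21 (1.01), the helicase Ddx41 (1.42), the endosomal proteases Ctsb (1.43) and Lgmn (1.13), Socs1 (1.11), Bst2 (1.12) and Stau1 (1.29). The lower genes were Traf3 (-1.57), Casp8 and Dtx3l (-2.06). In the set under 0.01% spike-in, 0 of 69 were higher and 2 lower, Zc3hav1 (-1.20) and Sp100 (-1.07), where 1.11% and 1.62% of all genes were. All list genes named for oocytes fell outside the rule for named genes and were picked after their values were seen.

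Levels of Ddx58 across the 33 oocytes were most like those of Eif1ax, a translation initiation factor, with Spearman's rho of 0.94 (0.81 within the 17 libraries of the spike-in set and 0.78 within the other 16). Lztfl1 (0.92) and Mettl6 (0.91) came next. For Ddx60 the closest was Hivep1 (0.82, with 0.66 and 0.86 within the sets), for Mavs Trp53 (0.76, with 0.62 and 0.84), for Tlr8 Sec13 (0.80, with 0.77 and 0.42) and for Adar Accsl (0.85, with 0.60 and 0.63). Between members, Ddx58 and Ddx60 had a rho of 0.51 within the spike-in set and 0.21 within the other, and Ddx58 and Tlr8 -0.64 and -0.03. The libraries behind these values differ in genotype and depth, and over all 33 also in library set, so the values are a description only.

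The 2-cell contrast was not used to choose the members. Ddx60 was again lower in KO. The WT samples, in order of replicate, had 6.23, 23.6, 29.5, 3.47, 8.54, 12.1, 22.0 and 0 CPM, and the KO samples 4.04, 0, 11.1, 1.87, 0.117, 3.38, 0, 0 and 0.213. Of 9 KO samples 8 lay below the WT median of 10.3, the exception being replicate 3, and WT replicate 8 had no count, so the groups overlapped. The pooled levels were 1.62 in KO and 11.2 in WT, a log2 ratio of -2.80 (-3.12 to -2.48), and -3.19 without WT replicate 8. Without WT replicate 2 or 3 the WT pool fell to 9.86 or 8.73 CPM, so that Ddx60 no longer reached the 10 CPM needed to be counted.

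Ddx58 was less than 2-fold lower in KO 2-cell samples. WT samples had 113, 28.4, 3.66, 69.5, 39.6, 23.0, 96.9 and 36.3 CPM, while KO samples had 9.25 to 33.8 (median 30.8). All 9 KO samples were below the WT median of 37.9, but 3 WT samples lay within the KO range or below it. The log2 ratio was -0.82 (-0.92 to -0.73), and -0.95 without WT replicate 8.

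Tlr8 was higher in KO, by an amount that turned on 1 library. WT samples had 7.83, 11.1, 0, 0, 11.6, 1.85, 11.48 and 47.4 CPM, and KO samples 10.3 to 38.2 (median 27.7). All 9 KO samples were above the WT median of 9.46. WT replicate 8, the sample that stood apart, was above every KO sample. The pooled log2 ratio was 0.68 (0.55 to 0.81), and 2.12 without that library.

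Mavs and Adar behaved alike in this respect, with WT replicate 8 the highest WT sample for each. Mavs had 1.85 to 37.7 CPM in WT (median 9.13) and 7.68 to 30.5 in KO (median 22.6), a log2 ratio of 0.19 (0.05 to 0.32), and 0.93 without that library. Adar had 8.96 to 41.1 CPM in WT (median 19.5) and 19.6 to 41.1 in KO (median 26.1), a log2 ratio of 0.20 (0.09 to 0.31), and 0.55 without it. All 9 KO samples were above the WT median for Adar, and 7 of 9 for Mavs.

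The scarce members differed in detection. Dhx58 had 0 to 5.28 CPM in WT 2-cell samples (median 1.06) and 1.24 to 8.65 in KO (median 2.15), and all 9 KO samples had counts against 5 of 8 WT. Its log2 ratio was 1.02 (0.61 to 1.43), below the level needed for a call. Eif2ak2 had 0.462 to 8.18 CPM in WT (median 3.21) and 0.370 to 7.16 in KO (median 1.05), with a log2 ratio of -0.83 (-1.18 to -0.48). Without WT replicate 8 the ratios were 0.62 for Dhx58 and -1.152 for Eif2ak2. Ifih1 had no count in WT and 18 counts in KO replicates 3 and 5, at least 4.12-fold higher against a floor of 3 counts over the WT group. Tlr7 had no count in any 2-cell sample.

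Of the 5 members compared at the 2-cell stage, 0 were at least 2-fold higher and 1, Ddx60, lower. Among all 8416 genes 5.96% were higher and 31.6% lower, so 1 of 5 is not above the background. The median log2 ratio of the 5 was 0.19, against -0.35 for all genes. Trimmed-mean (TMM) scaling moved every ratio up by 0.46 and DESeq2 size factors by 0.50. Under TMM the genes past 2-fold were 16.6% higher and 22.8% lower. With TMM the log2 ratios were 1.14 for Tlr8, 0.66 for Adar, 0.65 for Mavs, -0.36 for Ddx58 and -2.34 for Ddx60. Without WT replicate 8, Tlr8 was counted as higher and Ddx60 as lower, where 11.3% of 8648 genes were higher and 36.9% lower.

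**Figure D3:**
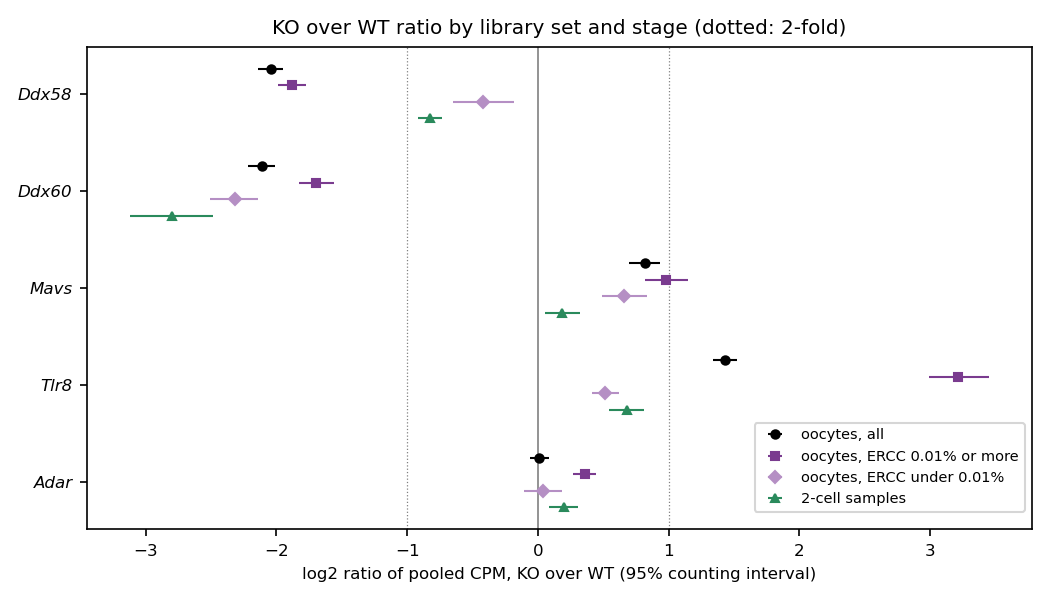
Log2 ratio of pooled CPM, KO over WT, for 5 members (x axis), with 95% counting intervals and dotted lines at 2-fold: circles are all oocytes, squares and diamonds the oocyte sets with 0.01% or more and under 0.01% ERCC, and triangles 2-cell samples. Ddx60 lies beyond 2-fold lower in all 4, and Tlr8 runs from 0.52 to 3.22.

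Over the 8 lists of the wider pathway, 34 of 103 genes compared were lower in KO 2-cell samples and 6 higher, near the shares of all genes, 31.6% and 5.96%. Of 13 interferon-stimulated genes compared, 7 were lower and 0 higher, with a median log2 ratio of -1.11. Ifi35 had 2.16 CPM in KO and 46.7 in WT (-4.43), Tor3a 4.25 and 23.0 (-2.44), and Dtx3l 8.96 and 27.7 (-1.63). Of 22 regulators of RIG-I-like receptors 7 were lower and 0 higher (median -0.45). Among them were Zc3hav1, which encodes the zinc finger antiviral protein ZAP, with 8.95 in KO and 104 in WT (-3.54), Rnf125, a ubiquitin ligase acting on RIG-I, with 26.2 and 163 (-2.64), and Tomm70a, a mitochondrial import receptor that binds Mavs (-2.40).

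Of 12 other RNA sensors 3 were higher and 4 lower (median -0.31). The higher ones, named after their values were seen, were the endosomal receptor Tlr3 (1.73) and the oligoadenylate synthetase family genes Oas1e (1.57) and Oas1d (1.39), and the lower ones included the helicases Dhx9 (-2.69), Ddx21 (-2.35) and Ddx1 (-1.82). Of 6 genes of the Toll-like receptor machinery 2 were lower, the cathepsins Ctsl, with 111 CPM in KO and 671 in WT (-2.59), and Ctsb (-2.07). Of 16 signalling genes 1 was higher, Rela (1.10), also named after its value was seen, and 6 lower (median -0.59), among them Sike1 (-3.72), which restrains the kinase Tbk1, Traf6 (-2.94) and Chuk (-1.84). Of 6 interferon receptor and JAK-STAT genes 1 was higher and 2 lower, the higher one being Socs1, an inhibitor of cytokine signalling, with 63.0 CPM in KO and 25.2 in WT (1.32). Of 18 genes of double-stranded RNA handling 1 was higher, Pnpt1, a mitochondrial exonuclease (1.24), and 4 lower, including Ilf2 (-1.26). Of 10 genes of eIF2alpha phosphorylation 2 were lower, Ppp1r15b (-1.92) and Nck1 (-1.65). Without WT replicate 8, 42 of 108 list genes were lower and 17 higher, where 36.9% and 11.3% of all genes were. Of 17 signalling genes 8 were then lower and 2 higher, and of 12 other sensors 4 and 4. Of 7 genes of the Toll-like receptor machinery 4 were lower and 0 higher, and of 8 interferon receptor and JAK-STAT genes 3 and 2. Of 18 genes of double-stranded RNA handling 5 were lower and 2 higher, and of 10 genes of eIF2alpha phosphorylation 2 and 2. Without that library, 9 of 14 interferon-stimulated genes were lower and 3 higher (median -1.66), and 7 of 22 regulators were lower and 2 higher (median -0.57), against a median of -0.46 for all genes.

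Between the egg and the 2-cell stage, the members changed level in different ways. In WT, Ddx60 was lower at the 2-cell stage, with pooled levels of 11.2 against 27.7 CPM and a log2 ratio of -1.30 (-1.44 to -1.16). Mavs was higher, with 16.6 against 7.71, a log2 ratio of 1.10 (0.96 to 1.25). These were the 1 lower and 1 higher of 5 members compared, where 14.3% of 8532 genes were lower and 41.1% higher. Without WT 2-cell replicate 8 neither reached 2-fold, at -0.90 for Ddx60 and 0.36 for Mavs. Ddx58 (0.52) and Adar (0.06) differed by less than 2-fold, and without that library they were at 0.64 and -0.30, so the sign for Adar turned. Tlr8 was at 0.46 over all WT libraries, -0.99 without that library, and 2.56 against the WT oocytes of the spike-in set alone. In that last comparison, where 42.1% of genes were higher and 12.8% lower, Mavs was also at 1.17 and Ddx60 at -1.57. Without 2-cell replicate 8 the ratios against those oocytes were 1.12 for Tlr8 and 0.43 for Mavs, both under the 10 CPM needed for a call, and -1.18 for Ddx60. Ddx58 was then at -0.004, with 54.9 against 55.1 CPM, and Adar at -0.66. TMM scaling moved the ratios over all WT libraries down by 0.91, which took Mavs to 0.19 and Ddx58 to -0.39, so the sign for Ddx58 turned.

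In KO, Ddx58 was higher at the 2-cell stage, with 28.5 against 8.53 CPM and a log2 ratio of 1.74 (1.63 to 1.85). It was the 1 member higher of 4 compared, where 23.6% of 7179 genes were higher and 17.4% lower. Against KO oocytes of the spike-in set it was 0.93, where 19.5% of 7153 genes were higher and 16.3% lower. Ddx60 was at -1.98 over all KO libraries, under the 10 CPM needed for a call, and at -2.67 against the spike-in set, where it was the 1 member lower. Mavs (0.47), Adar (0.24) and Tlr8 (-0.30) differed by less than 2-fold. Dhx58 was at 3.77 (3.25 to 4.33), from 0.238 to 3.26 CPM.

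Reads that carry a parental variant were split by allele at the 2-cell stage, where paternal reads come from transcription after fertilisation or from sperm RNA. The oocyte columns of the allele tables held the total counts as maternal in 33 of 33 libraries, and so give no background. Over all counts the paternal share was 14.6% in WT and 2.79% in KO, and the median over genes with 50 or more allele counts was 21.6% and 3.34%.

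Ddx60 had a paternal share of 26.9% in WT (88 of 327 allele counts, Clopper-Pearson 95% interval 22.2 to 32.1%). Those counts came from 3 of 8 samples, with 35 paternal and 51 maternal counts in replicate 2, 10 and 59 in replicate 3 and 43 and 35 in replicate 7. In KO the share was 5.26% (3 of 57, 1.10 to 14.6%), from replicate 1. Ddx58 had 17.7% in WT (52 of 293, 13.55 to 22.6%), with paternal counts in 7 of 8 samples, and 10.0% in KO (27 of 269, 6.72 to 14.3%), with paternal counts in 4 of 9. Among samples with 10 or more allele counts, the Ddx58 share ran from 0 to 77.8% in WT and from 0 to 46.7% in KO. Only 13.6% of its WT counts and 15.1% of its KO counts were assigned to an allele. Without KO replicate 2 the KO share of Ddx58 was 5.44%.

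Mavs, Tlr8 and Adar were mostly maternal in both genotypes. Mavs had 3.74% in WT (17 of 454), or 5.47% without replicate 8, and 5.75% in KO (45 of 782), or 3.501% without KO replicate 6. Tlr8 had 4.30% in WT, all 11 paternal counts being in WT replicate 8, and 0.510% in KO (3 of 588). Tlr8 lies on the X chromosome, so a paternal copy is present only in female embryos, and the sex of these samples is not given. Adar had 2.11% in WT (3.70% without replicate 8), its 6 paternal counts being in replicate 1, and none of 504 allele counts in KO, which allows a share of up to 0.729% by the same interval.

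Eif2ak2 and Dhx58 had few allele counts. Eif2ak2 had 47.7% in WT (31 of 65, 35.1 to 60.5%), or 22.7% without replicate 5, and each of the 5 samples with allele counts held 1 parental allele only. The paternal counts were 8, 21 and 2 in replicates 1, 5 and 7, and the maternal counts 18 and 16 in replicates 4 and 6. In KO it had too few allele counts to be assessed, 45 of the 50 required. Dhx58 had 33.3% in KO (41 of 123, 25.1 to 42.4%) and 47 allele counts in WT, also under 50.

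**Figure D4:**
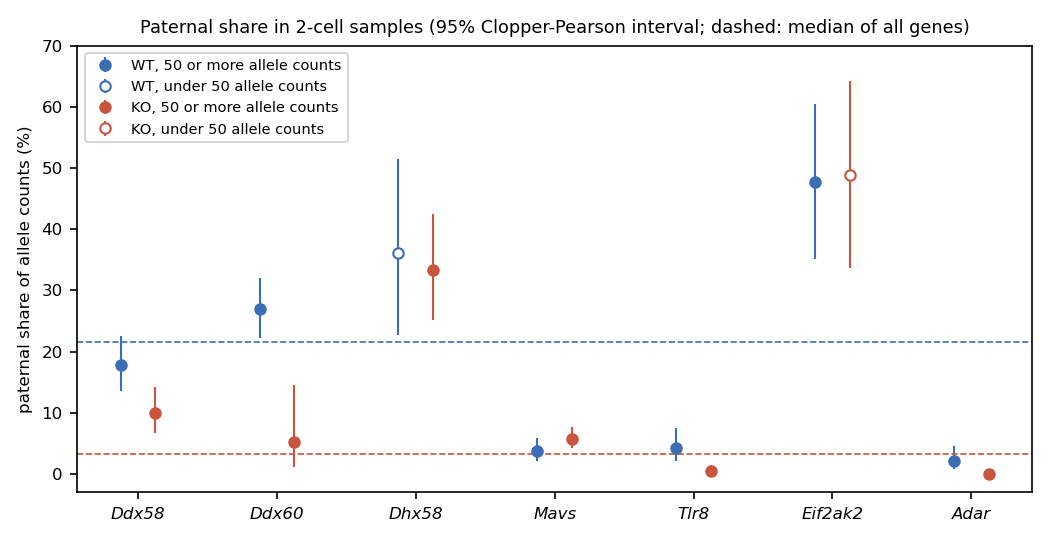
Paternal share of allele counts (y axis, percent) for 7 members in WT and KO 2-cell samples, summed over libraries, with 95% Clopper-Pearson intervals: filled points have 50 or more allele counts and dashed lines are the medians over all genes, 21.6% in WT and 3.34% in KO. Ddx58 and Ddx60 have lower shares in KO, and Mavs, Tlr8 and Adar lie under 6% in both.

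In epiblast, the layer that forms the body of the embryo, 4 members had counts in both E6.5 samples and none in either cultured sample. They passed the low-count filter through the E6.5 samples alone, so their p-values are given as a description and not as support. Adar had 69.6 and 80.5 CPM in the E6.5 samples and 0 in both cultured samples, at least 529-fold lower against a floor of 3 counts over the group (edgeR quasi-likelihood F test, Benjamini-Hochberg adjusted p = 0.0250). Mavs had 9.30 and 10.0 CPM at E6.5 and 0 in both cultured samples, at least 67.2-fold lower (edgeR adjusted p = 0.0398). Ddx58 had 5.83 and 4.57 against 0 and 0, at least 34.3-fold lower, and Dhx58 2.11 and 3.12 against 0 and 0, at least 19.2-fold lower (edgeR adjusted p = 0.0398 for each).

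The PKR gene Eif2ak2 was split between the cultured samples, with 22.0 CPM in one and 0 in the other, against 6.51 and 4.70 at E6.5. Its log2 fold change of 1.25 (SE 2.70) did not pass (edgeR adjusted p = 0.780). Ddx60 (2.03 and 0 CPM) and Ifih1 (0.761 and 0) had counts in 1 E6.5 sample only, and Tlr7 and Tlr8 had none in any epiblast sample. So 4 of 5 members tested fell and 0 rose, where 23.5% of 11565 genes fell and 1389 genes rose. The 4 passed the low-count filter through the E6.5 samples alone, so the count is a description. None of the 4 calls survived leaving out either E6.5 sample. The call of Dhx58 was also lost without cultured replicate 1 or 2 (edgeR adjusted p = 0.105 and 0.0987), and without the low-count filter only Adar passed (edgeR adjusted p = 0.0246, against 0.0826 for Ddx58, 0.0727 for Mavs and 0.113 for Dhx58).

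Zeros were common in the cultured samples. They detected 8380 and 8990 genes, against 13101 and 13698 at E6.5. Of genes with a mean of 1 to 5 CPM at E6.5, where Dhx58 lies, 55.8% had no count in either cultured sample. The share was 26.0% at 5 to 20 CPM, where Ddx58 and Mavs lie, and 4.37% at 50 to 100 CPM, where Adar lies. Rn45s took 26.2 and 23.3% of the counts in the E6.5 samples and 0.101 and 0.121% in the cultured samples. Epiblast markers summed to 2079 to 2349 CPM in cultured and 5060 to 5809 in E6.5 samples, visceral endoderm markers to 584 to 641 and 169 to 206, and trophoblast markers to 6266 to 6303 and 7.78 to 29.2, almost all of it Prl3d1, with 7 of 11 trophoblast markers at 0. The part of these differences in the members' zeros was not tested, and in such bulk samples fewer cells of a type and less RNA per cell cannot be told apart. The labels do not say that the samples come from separate embryos, so these p-values measure only the spread between the samples, which may be technical.

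**Figure D5:**
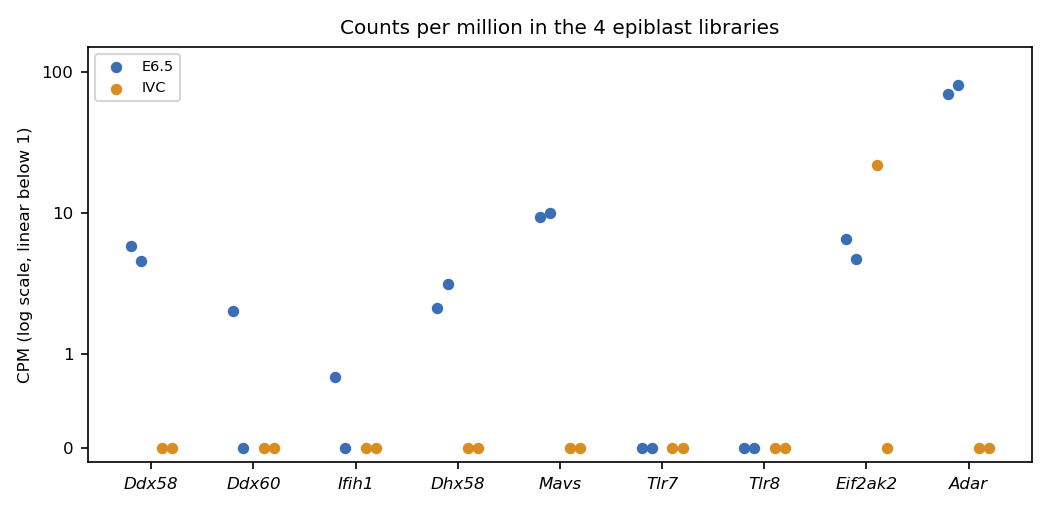
CPM of the 9 members in the 2 E6.5 and 2 cultured (IVC) epiblast samples, on an axis that is linear from 0 to 1 and logarithmic above: each point is 1 sample. Adar, Mavs, Ddx58 and Dhx58 have counts in both E6.5 samples and lie at 0 in both cultured samples.

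Other genes of the pathway moved both ways in cultured epiblast. Over the 8 lists 34 of 132 genes tested fell (25.8%), near the background of 23.5% that fell. In the same lists 9 genes rose (6.82%), a smaller share than the 1389 of all 11565 genes that rose. Of 23 tested regulators of RIG-I-like receptors 2 rose and 7 fell, and of 20 interferon-stimulated genes 5 rose and 5 fell. Zc3hav1 rose from 10.8 and 13.1 CPM to 206 and 124, a log2 fold change of 4.06 (SE 0.46, edgeR adjusted p = 0.0175). The immunoproteasome subunit Psmb9 rose from 0 and 0.0416 CPM to 18.9 and 12.1 (edgeR adjusted p = 0.0398). Psmb9 passed the low-count filter through the cultured samples alone, so its p-value is given as a description. Of 10 other RNA sensors 4 fell and 0 rose, among them Dhx9, from 911 and 770 CPM to 82.4 and 61.6, a log2 fold change of -3.27 (SE 0.27, edgeR adjusted p = 0.00863). Of 23 genes of double-stranded RNA handling 4 fell and 0 rose. Ago2, the slicing Argonaute, fell from 365 and 358 CPM to 6.84 and 16.8, a log2 fold change of -4.67 (SE 0.57, edgeR adjusted p = 0.0202). Of 22 signalling genes 4 fell and 0 rose, one being Irf1, a transcription factor of the interferon response, with 23.3 and 22.5 CPM at E6.5 and 0 in both cultured samples, at least 156-fold lower, which like the members passed the low-count filter through the E6.5 samples alone. Of 13 interferon receptor and JAK-STAT genes 4 fell, of 10 genes of the Toll-like receptor machinery 2 fell, and of 11 genes of eIF2alpha phosphorylation 2 rose and 4 fell. The translation factor subunit Eif2s2 rose from 249 and 239 CPM to 1828 and 1760, a log2 fold change of 3.15 (SE 0.13, edgeR adjusted p = 0.00379).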

How the data were processed

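The authors deposited unnormalized read counts by gene symbol. The submitters' processing notes name build mm9 and, without saying which step each served, the aligner STAR 2.6.0a, the counters featureCounts 2.0.1 and HTSeq 0.10.0, and the trimmers Trim Galore 0.6.6 and cutadapt 1.15, beside tools for methylation data. The 92 ERCC spike-in rows among 24542 did not enter the totals. Of 209 samples in the series, 54 had columns and 155 were not analysed here. The members and the gene lists (195 genes in 8 lists) were chosen with earlier results of these data known.

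Oocyte and 2-cell counts were summed per group, and log2 ratios of pooled CPM were given exact conditional Poisson intervals at 95% (Python 3.11.15, pandas 2.3.3, scipy 1.17.1). A gene with at least 10 CPM in one pool was called from a 2-fold difference, and a pool at 0 was set to 3 counts. Paternal shares are paternal counts over both alleles, for genes with 50 or more. Epiblast counts, joined on 24446 symbols, were tested with edgeR 4.0.16 (R 4.3.3, TMM, filterByExpr, quasi-likelihood F test, two-sided, Benjamini-Hochberg adjusted p under 0.05). The pooled comparison and the edgeR fit were tested on simulated data. Epiblast libraries held 10241401 to 24047088 counts.

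All members are described. From each list up to 3 called genes with the largest ratio are named, at 20 CPM or more in the higher pool (in epiblast a mean of 10), and in oocytes with the same direction by at least 1.5-fold in both ERCC sets. Likeness is Spearman's rho of CPM for members at a mean of 10 CPM or more, with 3 genes each. Gene overlaps and promoter sequences are from RefSeq GRCm38 tables, used for names and neighbours only in relation to the mm9 counts. Alternatives were other scalings (DESeq2 1.42.0 size factors and test), filters, folds, means of library CPM and left-out libraries.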

Additional observations from a re-analysis of the deposited data

Results flagged for a closer look

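In 15 groups of 4 to 10 values of the members checked for a sample far from the others, 3 were found, and chance gives about 1 in 20 groups. Tlr8 in WT 2-cell replicate 8 had 47.4 CPM, with the next WT sample at 11.6. Ddx60 in KO 2-cell replicate 3 had 11.1 CPM, with the next KO sample at 4.04. Dhx58 in KO 2-cell replicate 7 had 8.65 CPM, with the next KO sample at 3.75.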

How the results depend on the processing

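Over 37 alternatives the oocyte ratios of Ddx58, Ddx60, Tlr8 and Mavs kept their sign, as they did over 22 alternatives in 2-cell samples. For oocytes, counts of members went from 1 to 2 higher at a 1.5-fold limit and from 2 to 4 lower with no filter on low levels. In the spike-in set they went from 1 to 2 higher with the mean of library CPM and at 1.5-fold, and from 2 to 4 lower with no filter, and leaving out 1 library gave 1 to 2 higher (Mavs without KO replicate 13 or 14 or WT replicate 5, 7, 8, 9 or 11). In the set under 0.01% they went from 0 to 1 higher at 1.5-fold and from 1 to 4 lower with no filter, and leaving out 1 library gave 0 to 1 higher (Mavs without WT replicate 2 or 3).

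For 2-cell samples the higher count of 0 became 1 with TMM, DESeq2 factors, the mean of library CPM or 1.5-fold and 2 with no filter, and the lower count of 1 became 2 at 1.5-fold. Without the deepest library of each group, chosen after seeing the data as were the Rn45s alternatives and the list counts and spike-in stage ratios without WT replicate 8, 2 were higher and 2 lower. Leaving out 1 library gave 0 to 1 higher (WT replicate 8) and 0 to 1 lower (WT replicates 2 and 3). Over all 8416 genes, 502 were higher, against 1397 with TMM and 1520 with DESeq2 factors. From oocyte to 2-cell, the WT count of 1 higher became 0 with TMM, DESeq2 factors or the mean of library CPM and 2 with no filter or with the spike-in oocytes alone. Leaving out 1 library gave 0 to 1 (2-cell replicate 8, oocyte replicate 1). The WT count of 1 lower became 2 with no filter and 0 to 1 with 1 library left out (2-cell replicate 8). In KO, 1 higher became 3 with no filter and 0 with spike-in oocytes alone, and 0 lower became 1 with DESeq2 factors (Tlr8), no filter or spike-in oocytes alone (Ddx60). TMM and DESeq2 factors moved KO ratios by -0.64 and -0.70. With TMM, genes higher went from 3507 to 2249 and lower from 1224 to 2758 in WT, and from 1691 to 785 and from 1246 to 2280 in KO. The cause of each change was not tested.

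In epiblast the replicate numbers are not read as pairs: deviations of replicate 1 from its group mean correlated at 0.006 between the groups, over 11565 genes. With 2 samples a group, replicate 2 mirrors replicate 1 and gives the same value. With the replicate block 0 members passed, against 4 without it (edgeR adjusted p = 0.0536 for Adar), and 893 genes rose and 361 fell, against 1389 and 2717. With no filter 1 member and 631 genes fell. With DESeq2 the same 4 members passed, with 1747 genes higher and 3544 lower. Leaving out 1 sample gave 0 to 4 members (0 without either E6.5 sample, Ddx58, Mavs, Eif2ak2 and Adar without cultured replicate 1, and Ddx58, Mavs and Adar without cultured replicate 2) and 118 to 5476 genes that fell, and 0 to 1 members and 612 to 2880 genes that rose. The sample left alone in a group was then assumed to vary like the other group. Eif2ak2 changed sign, with log2 fold changes from -9.40 without cultured replicate 1 to 2.26 without cultured replicate 2 (edgeR adjusted p = 0.0119 and 0.00751). With 2 samples a group and no count in either cultured sample, depth limits these folds to bounds.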

Other observations

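From oocyte to 2-cell stage, several other genes of RNA sensing differed. Oas1d, an oocyte gene of the oligoadenylate synthetase family, was lower at the 2-cell stage, with 244 against 3249 CPM (log2 ratio -3.73), and in KO with 641 against 3924 (-2.61). Dicer1, the RNase of RNA interference, was lower too, with 124 against 409 in WT (-1.72) and 110 against 449 in KO (-2.03). Oocytes of the spike-in set alone had 302 CPM of Dicer1 in WT and 239 in KO, so its difference is smaller against them. For Oas1d they had 2752 in WT and 3816 in KO. Ctsl, a cathepsin that processes endosomal Toll-like receptors, was higher, with 671 against 0.652 in WT (10.01) and 111 against 1.68 in KO (6.05). Of 22 regulators of RIG-I-like receptors compared in WT 10 were higher and 0 lower, and of 19 in KO 3 were higher and 0 lower, where the share of all genes higher was 41.1% and 23.6%.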
